A study of Homo sapiens with 12 samples.

Results

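The nuclear-encoded subunits of respiratory complexes I to IV were followed by RNA-seq through the differentiation of human embryonic stem cells into blood progenitors. The members were the 56 genes of a list of these subunits, found by symbol among 56593 symbols of the table, and all 56 were present: 33 of complex I, 4 of complex II, 9 of complex III and 10 of complex IV. The 12 libraries came from H1, a single human embryonic stem cell line, and from 3 sorted cell populations that arose from H1 in Custom mTeSR1 medium, with 3 libraries each. The H1 cells themselves were undifferentiated. APLNR+ mesoderm cells, which carry the apelin receptor, were taken at day 2, under activinA and BMP4. CD31+CD34+ hemogenic endothelial progenitors (HEPs) were taken at day 5 and CD43+ hematopoietic progenitor cells (HPCs) at day 8, both under VEGF and bFGF after the first 2 days. The labels name no genetic change, and a single line stands for all populations. The labels do not say whether the 3 libraries of a population came from separate cultures, so the p-values measure the spread between these libraries, which may be technical.

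The respiratory chain sits in the inner mitochondrial membrane and carries electrons from NADH and succinate to oxygen. Complex I, the NADH dehydrogenase, complex III, the cytochrome bc1 complex, and complex IV, cytochrome c oxidase, pump protons as they pass electrons on, while complex II, succinate dehydrogenase, also works in the citric acid cycle. Most subunits are encoded in the nucleus, a few hydrophobic core subunits in mitochondrial DNA, and pluripotent stem cells are known for a high use of glycolysis beside respiration.

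The values are FPKM, fragments scaled to transcript length and library total, so levels can be compared between genes per length. FPKM keeps no read totals, and only a relative depth could be read from the steps between the lowest values. With the geometric mean set to 1, replicate 1 was the shallowest library of every population, at 0.607 to 0.776, against 1.04 to 1.33 for replicates 2 and 3. Member values ranged from 2.56 to 821 FPKM and none was listed at 0, while the sorting markers followed the labels: APLNR read 388, 402 and 359 FPKM in APLNR+ cells, PECAM1 50.9, 59.03 and 55.6 in CD31+CD34+ cells and SPN, which encodes CD43, 60.3, 90.6 and 75.7 in CD43+ cells. PTPRC, the pan-leukocyte marker CD45, read at most 0.521 FPKM in any library, so this marker was near 0 in CD43+ cells too. The summed level of 6 pluripotency genes was between 2141 and 2249 FPKM in H1, between 620 and 706 in APLNR+, between 346 and 429 in CD31+CD34+ and between 173 and 201 in CD43+ cells, and that of 6 endoderm genes was at most 44.8 FPKM. Mesoderm markers summed to between 561 and 620 FPKM in mesoderm, between 407 and 462 in HEPs and at most 28.7 in HPCs, and endothelial markers to between 483 and 664 in HEPs and between 267 and 359 in HPCs. Of the 6 mesoderm genes, 5 were lower in HEPs than in mesoderm, with a median log2 change of -2.44 over the 6. Blood markers summed to between 1211 and 1355 FPKM in HPCs and at most 29.2 elsewhere. Neural markers stood between 137 and 181 FPKM in H1, between 94.1 and 113 in mesoderm, between 145 and 165 in HEPs and between 21.5 and 26.8 in HPCs. Of these 6 neural genes only 2 reached 1 FPKM in 3 libraries, so the sum stands for few genes. The part of such other cells in the results was not tested. These are bulk populations, in which fewer cells of a type and less RNA per cell cannot be told apart. Replicate 1 stood apart from replicates 2 and 3 for some members: it was the highest of its population in all 4 populations for 10 members, among them SDHC, SDHD, UQCRH and COX7B, and the lowest in all 4 for 10 others, among them NDUFA12, NDUFS1, COX7A2 and COX7C. Counts with replicates 2 and 3 alone are therefore given beside each comparison.

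The subunits of complex IV were the most abundant as a class. Their median was 266 ± 18.4 FPKM in H1 (mean ± SD over 3 libraries), against 99.6 ± 4.56 for complex III, 69.7 ± 6.86 for complex I and 41.6 ± 2.45 for complex II. The highest members over all libraries were COX7A2 (mean 494 FPKM) and COX7C (397 FPKM), both small membrane subunits of complex IV, and UQCRH (379 FPKM), the hinge protein of complex III. The lowest were NDUFA5 (12.5 FPKM), an accessory subunit of the matrix arm of complex I, SDHC (13.96 FPKM), a membrane anchor of complex II, and NDUFV3 (18.2 FPKM), a small accessory subunit of complex I. Summed over the 56 members, the level was 7958 ± 470 FPKM in H1, 4885 ± 248 in mesoderm, 6587 ± 366 in HEPs and 9279 ± 468 in HPCs. The 4 populations did not overlap in this sum, which was 7604 to 8491 FPKM in H1, 4600 to 5053 in mesoderm, 6370 to 7010 in HEPs and 9005 to 9819 in HPCs. Each complex was lowest in APLNR+ cells by its sum: complex I went from 3584 ± 247 to 2302 ± 103 FPKM and stood at 4044 ± 219 in CD43+ cells, and complex IV went from 2866 ± 60.4 over 1608 ± 121 and 2451 ± 197 to 3693 ± 235. The sums of complexes II and III in CD43+ cells, 155 ± 4.07 and 1388 ± 22.4, differed from those in H1, 151 ± 8.92 and 1355 ± 168, by less than the SD of the H1 libraries.

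**Figure D1:**
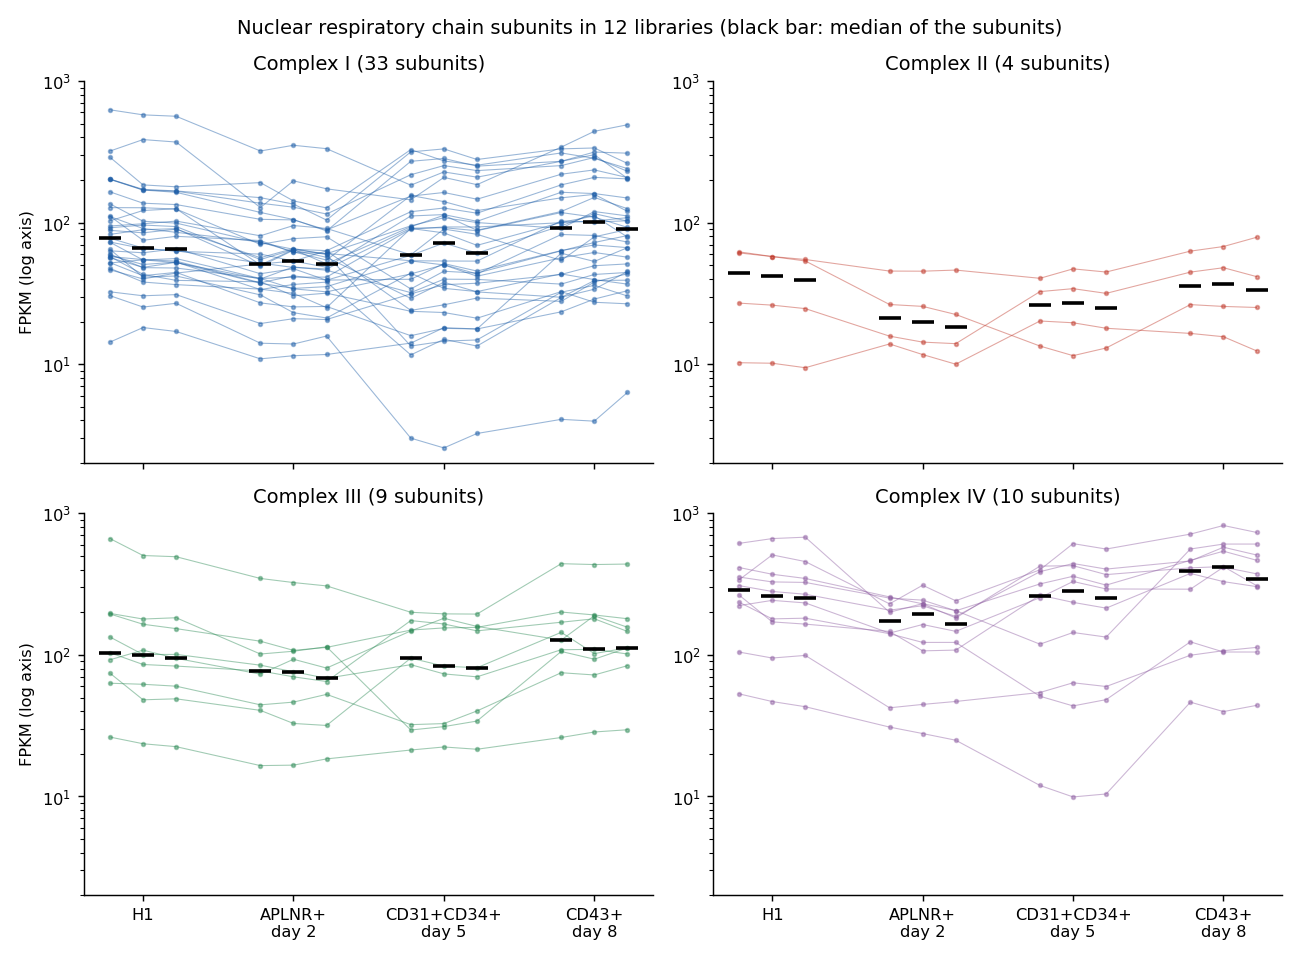
FPKM (log axis) of each of the 56 subunits in the 12 libraries, by complex; thin lines join the values of 1 subunit across libraries and carry no order within a population, and black bars are the median over the subunits of a complex. The medians are lowest in the APLNR+ libraries, while single subunits such as NDUFA5 and COX7B drop much further in CD31+CD34+ cells.

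Nearly all of the 56 nuclear subunits fell between pluripotency and mesoderm. From H1 to APLNR+ cells, 50 of the 56 members fell and 0 rose (limma on log2(FPKM + 1), adjusted p under 0.05 with no minimum change), while 35.2% of the 14840 genes tested were called lower and 22.7% higher. At an unadjusted p under 0.05, 1 member was higher. The median log2 change of the members was -0.56, against -0.12 over all genes tested. All 10 members of complex IV fell, as did 29 of 33 in complex I, 3 of 4 in complex II and 8 of 9 in complex III. The changes were modest, and 5 members fell by at least 2-fold, against 7.62% of all genes: COX7C, SDHD, COX5A, NDUFB1 and NDUFA3.

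COX7C, a small membrane subunit of cytochrome c oxidase, read 614, 664 and 679 FPKM in H1 and 200.2, 230.2 and 206 in APLNR+ cells (log2 change -1.62 ± 0.09, adjusted p 3.1e-08), and the lowest H1 library was more than 2-fold above the highest APLNR+ library. SDHD, the small membrane anchor of succinate dehydrogenase, read 61.04, 57.5 and 53.6 FPKM in H1 and 26.4, 25.6 and 22.4 in APLNR+ cells (log2 change -1.18 ± 0.09, adjusted p 4.01e-07). Its symbol stands on 2 lines of the table, and the line with the higher mean was used. COX5A, a matrix-side subunit of complex IV, went from 105, 95.1 and 99.2 to 42.3, 44.7 and 46.9 FPKM (log2 change -1.14 ± 0.09, adjusted p 3.51e-07), and NDUFB1, an accessory subunit of the membrane arm of complex I, from 320.04, 386 and 371 to 128, 197 and 173 (log2 change -1.13 ± 0.19, adjusted p 0.000259). In none of these did the populations overlap, which the rule for naming them required.

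Of the other core positions, SDHA, the flavoprotein of complex II, fell from 26.98, 26.1 and 24.7 to 15.8, 14.3 and 13.95 FPKM (log2 change -0.78 ± 0.08, adjusted p 7.55e-06), and its iron-sulfur partner SDHB from 62.1, 57.6 and 54.9 to 45.4, 45.4 and 46.2 (log2 change -0.34 ± 0.10, adjusted p 0.00954). NDUFV1, which holds the flavin where NADH is oxidised, fell by 0.35 on the log2 scale, the Rieske iron-sulfur protein UQCRFS1 by 0.46, cytochrome c1 (CYC1) by 0.36 and COX4I1, the largest nuclear subunit of complex IV, by 0.48 (adjusted p from 0.000673 to 0.0197). The 6 members that did not pass were NDUFA6 (log2 change 0.35, adjusted p 0.0618), SDHC (0.22, 0.153), NDUFB4, NDUFS1, UQCRC1 and NDUFA13 (from -0.49 to -0.15). NDUFA6, an accessory subunit of complex I, read 46.4, 39.98 and 43.99 FPKM in H1 and 51.01, 53.4 and 63.2 in APLNR+ cells, without overlap, and APLNR+ was its highest population. Its adjusted p was under 0.05 in 9 of 24 alternatives, with a higher level in each. With replicates 2 and 3 alone, 49 members were lower and 1 higher (4695 of all genes were then lower and 3170 higher). With quantile normalization, 37 members were lower and 1 higher (4804 of all genes were then lower and 3772 higher).

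**Figure D2:**
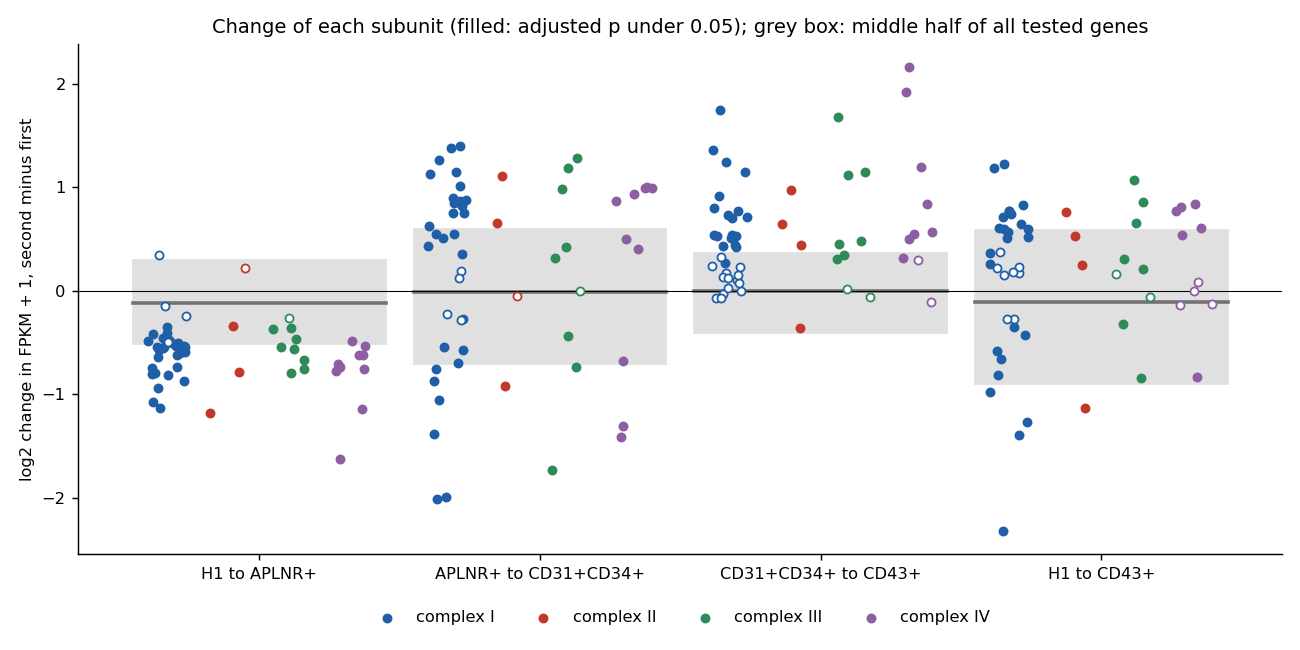
Log2 change of each subunit on the log2(FPKM + 1) scale, second population minus first, in the 4 comparisons and by complex; filled points passed an adjusted p under 0.05, the grey box spans the interquartile range of the 14840 genes tested and the grey line is their median. Nearly all points lie below 0 at the first step, they part at the middle step, and nearly all called points lie above 0 at the last.

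From mesoderm to HEPs the subunits parted. Between APLNR+ and CD31+CD34+ cells, 33 members rose and 17 fell, against 35.9% of all genes tested called higher and 37.9% lower. The members had a median log2 change of 0.46 and all genes of -0.01. At least 2-fold, 9 members were higher and 7 lower, against 12.5% and 17.1% of all genes. Every complex held members of both kinds: 19 higher and 10 lower in complex I, 2 and 1 in complex II, 5 and 3 in complex III, and 7 and 3 in complex IV. With replicates 2 and 3 alone, 34 rose and 18 fell (5335 of all genes were then higher and 5238 lower).

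Among the largest rises, NDUFS7, which carries an iron-sulfur cluster next to the quinone site of complex I, read 33.9, 31.6 and 25.1 FPKM in APLNR+ and 90.9, 84.6 and 69.05 in CD31+CD34+ cells (log2 change 1.40 ± 0.16, adjusted p 7.39e-06). NDUFB7 of the membrane arm went from 118, 105 and 87.3 to 271, 284 and 250.4 (log2 change 1.38 ± 0.15, adjusted p 4.92e-06), and UQCR11, the smallest subunit of complex III, from 40.6, 32.8 and 31.8 to 94.9, 83.3 and 81.2 (log2 change 1.28 ± 0.18, adjusted p 3.32e-05). NDUFA11, also of the membrane arm, went from 150.02, 135 and 104 to 316, 331 and 279 FPKM (log2 change 1.26 ± 0.15, adjusted p 8.62e-06). In each of these 4 the lowest HEP library lay above the highest mesoderm library, as the rule for naming them required. Of the core positions, CYC1 rose from 77.1, 70.04 and 64.9 to 175, 165 and 148 FPKM (log2 change 1.19 ± 0.12, adjusted p 1.73e-06), SDHA from 15.8, 14.3 and 13.95 to 32.5, 34.1 and 31.6 (log2 change 1.11 ± 0.08, adjusted p 2.07e-07), and NDUFV1 by 1.01, COX4I1 by 1.00, COX5A by 0.40 and UQCRFS1 by 0.32 on the log2 scale.

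Among the falls, NDUFS4, an accessory subunit of the matrix arm near the NADH site, read 56.5, 65.6 and 59.4 FPKM in APLNR+ and 13.4, 14.5 and 14.8 in CD31+CD34+ cells (log2 change -2.01 ± 0.09, adjusted p 2.38e-09). NDUFA5 of the same arm went from 14.1, 13.9 and 15.8 to 3.00, 2.56 and 3.24 FPKM (log2 change -1.99 ± 0.15, adjusted p 1.52e-07), so that its level in HEPs was the lowest of any member in any population. UQCRB, which binds near the quinone site of complex III, went from 101, 106 and 114 to 29.5, 31.2 and 34.1 (log2 change -1.73 ± 0.09, adjusted p 1.13e-08), and COX6C of complex IV from 141, 123 and 123 to 51.1, 43.6 and 48.3 (log2 change -1.41 ± 0.12, adjusted p 5.99e-07). NDUFB3, COX7B and NDUFA6 also fell by at least 2-fold, with log2 changes of -1.38, -1.30 and -1.05. In complex II the flavoprotein SDHA rose, while the iron-sulfur protein SDHB read 45.4, 45.4 and 46.2 FPKM in APLNR+ and 40.4, 47.1 and 44.7 in CD31+CD34+ cells and did not pass (log2 change -0.05 ± 0.10, adjusted p 0.639). The pair that carries electrons from NADH in complex I parted too, with NDUFV1 higher and NDUFV2 lower (log2 change -0.87 ± 0.12, adjusted p 3.34e-05). The iron-sulfur subunit NDUFS1 had log2 change -0.27 ± 0.11, adjusted p 0.0464, and kept this call in 13 of 24 alternatives, losing it without each of 7 libraries (all of H1, APLNR+ replicates 2 and 3, CD31+CD34+ replicate 1 and CD43+ replicate 2).

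**Figure D3:**
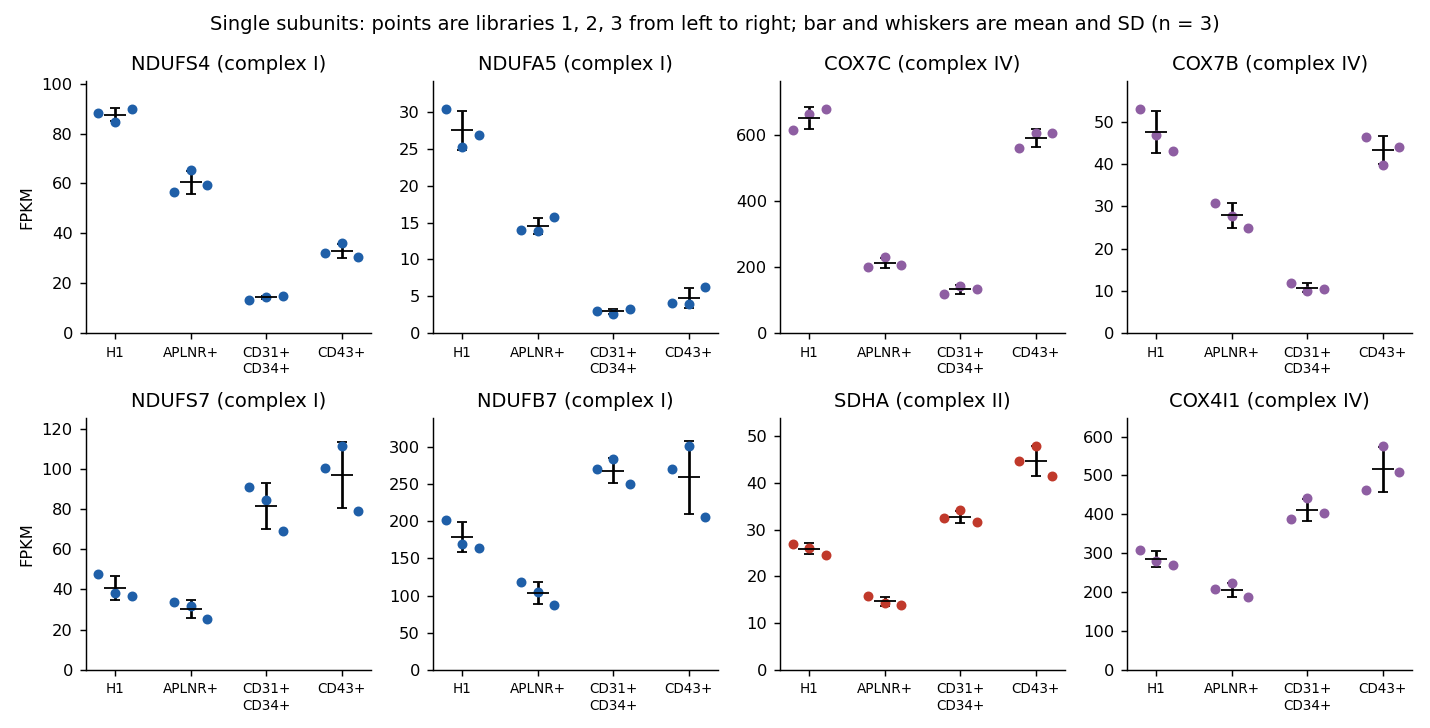
FPKM of 8 single subunits by population; points are replicates 1, 2 and 3 from left to right, and the bar with whiskers is the mean ± SD of 3 libraries. NDUFS4, NDUFA5, COX7C and COX7B are lowest in CD31+CD34+ cells, while NDUFS7, NDUFB7, SDHA and COX4I1 are lowest in APLNR+ cells.

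The base composition of the transcripts moved with the direction at this step. The median GC content of the annotated transcripts of a member ranged from 34.4% to 66.8%, with a median of 50.8%. Of the 13 members under 45% GC, 12 fell. Of the 27 members between 45% and 55%, 17 rose and 5 fell, and all 16 members at 55% or more rose. Across the 56 members the Spearman correlation of the change with GC was 0.81, and across 12782 protein-coding genes tested it was 0.63, values that describe genes of the same libraries and carry no test. Of all protein-coding genes under 45% GC, 74.9% were lower at this step, and of those at 55% or more, 69.4% were higher. The 90 bases at the middle of the coding sequence are shown for 3 of the members that fell most and the 3 that rose most (GENCODE release 29, 5′ to 3′, G and C in capitals). NDUFS4 lies on chromosome 5, NDUFA5 on 7, NDUFB3 on 2, and NDUFS7, NDUFB7 and UQCR11 on 19.
NDUFS4: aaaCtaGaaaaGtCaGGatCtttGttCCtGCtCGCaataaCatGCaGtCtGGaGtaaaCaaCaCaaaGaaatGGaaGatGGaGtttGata
NDUFA5: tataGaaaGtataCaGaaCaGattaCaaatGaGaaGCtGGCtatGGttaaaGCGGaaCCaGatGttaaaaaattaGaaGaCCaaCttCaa
NDUFB3: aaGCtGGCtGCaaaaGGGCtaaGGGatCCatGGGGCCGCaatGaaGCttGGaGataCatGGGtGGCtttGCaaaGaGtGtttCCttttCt
NDUFS7: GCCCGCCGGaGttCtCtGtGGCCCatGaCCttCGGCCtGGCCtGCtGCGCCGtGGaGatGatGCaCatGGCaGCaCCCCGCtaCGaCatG
NDUFB7: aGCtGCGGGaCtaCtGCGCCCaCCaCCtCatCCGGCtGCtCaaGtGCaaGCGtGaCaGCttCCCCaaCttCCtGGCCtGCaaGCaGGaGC
UQCR11: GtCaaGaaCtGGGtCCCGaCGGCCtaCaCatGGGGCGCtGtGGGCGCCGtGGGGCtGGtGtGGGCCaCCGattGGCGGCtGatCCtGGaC
Over the whole coding sequence, GC was 44.4% in NDUFS4, 42.8% in NDUFA5 and 42.9% in NDUFB3, and 68.1% in NDUFS7, 65.9% in NDUFB7 and 61.3% in UQCR11.

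The libraries differed in their GC trend. For each protein-coding gene the deviation from its mean over all libraries was taken, so the values set the libraries against each other. The Spearman correlation of this deviation with GC was between -0.48 and -0.36 in H1 and between -0.54 and -0.34 in mesoderm libraries. It was between 0.54 and 0.63 in HEP and between 0.19 and 0.37 in HPC libraries. In a fit made after the data were seen, in which this trend was taken off each library, 26 members rose and 13 fell at the middle step, with a median log2 change of 0.22, and 2 rose and 1 fell by at least 2-fold (4791 of all genes were then higher and 4754 lower). NDUFS4 then had a log2 change of -1.36, NDUFA5 of -0.81, UQCRB of -0.76 and COX6C of -0.89, NDUFS7 of 0.72 and NDUFB7 of 0.70. Against this, NDUFA9, at 45.1% GC, went from 1.15 to 1.55, and COX7A2, at 45.8%, from 0.99 to 1.31, and these were the 2 members at least 2-fold higher. NDUFS1 turned from -0.27 to 0.27 (adjusted p 0.00284) and NDUFB5 from -0.57 to 0.33 (adjusted p 0.0282), while NDUFB6 (-0.54 to 0.23), COX7C (-0.68 to 0.09) and NDUFA7 (0.43 to -0.03) changed sign and lost their call. Since the trend runs with the populations, the part of base composition in these changes and that of the cell type cannot be told apart. The first step did not share the trend: its correlation with GC was 0.16 over the members. There, 50 members were called lower after the trend was taken off, with a median of -0.49 (4640 of all genes were then lower and 4230 higher).

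**Figure D4:**
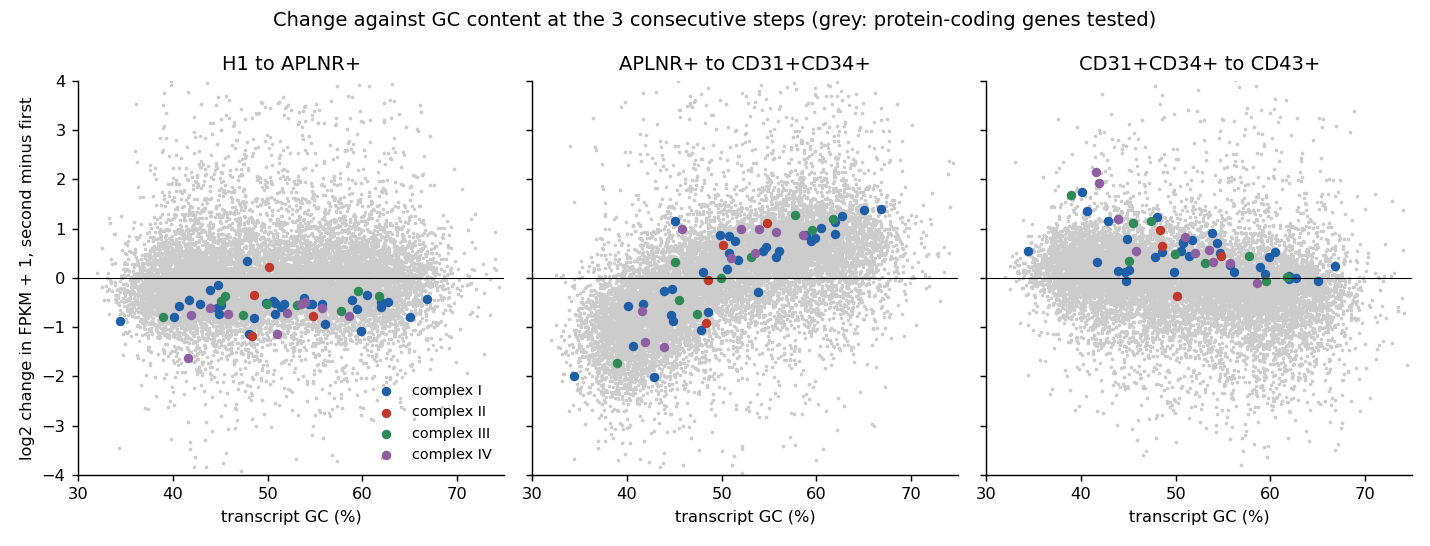
Log2 change on the log2(FPKM + 1) scale against the median GC content of a gene's transcripts at the 3 consecutive steps; coloured points are the 56 subunits by complex, grey points protein-coding genes tested, and genes beyond the axes are not drawn. Members and grey points rise together with GC at the middle step, members lie flat below 0 at the first, and low-GC members lie highest at the last.

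In the passage from HEPs to HPCs most of the 56 nuclear subunits rose, and 18 had no call, 14 of them in complex I. From CD31+CD34+ to CD43+ cells, 37 of 56 members were higher and 1 lower, against 25.9% of all genes tested higher and 27.8% lower. The median log2 change was 0.47 for the members and 0.00 for all genes. At least 2-fold, 10 members were higher and 0 lower, against 5.58% of all genes higher. Complex IV had 8 of 10 members higher, complex III 7 of 9, complex II 3 of 4 and complex I 19 of 33. The member that fell was SDHC (log2 change -0.36 ± 0.13, adjusted p 0.0301), which was not called in 8 of 24 alternatives. With replicates 2 and 3 alone, 40 rose and 1 fell (3799 of all genes were then higher and 3964 lower). With the GC trend taken off, 45 rose and 0 fell (4109 of all genes were then higher and 4200 lower).

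The largest rises were in small subunits of complex IV. COX7C read 119, 144 and 134 FPKM in CD31+CD34+ and 560.2, 607 and 607 in CD43+ cells (log2 change 2.16 ± 0.09, adjusted p 3.72e-09), and COX7B went from 11.96, 9.92 and 10.4 to 46.4, 39.8 and 44.02 (log2 change 1.92 ± 0.11, adjusted p 3.9e-08). NDUFB5 of the membrane arm of complex I followed, from 15.9, 17.9 and 17.7 to 60.7, 53.1 and 66.4 FPKM (log2 change 1.75 ± 0.10, adjusted p 5.11e-08), and UQCRB, from 29.5, 31.2 and 34.1 to 106, 93.3 and 112 (log2 change 1.68 ± 0.09, adjusted p 2.6e-08). In these 4 genes every HPC library was more than 2-fold above every HEP library. The other 6 with at least 2-fold were NDUFB3, NDUFB1, COX6C, NDUFS4, UQCRH and UQCRC2 (log2 changes from 1.12 to 1.36). NDUFS4 reached 32.2, 36.02 and 30.3 FPKM. Among the core positions, SDHB rose by 0.65, COX5A by 0.84, NDUFV1 by 0.53, SDHA by 0.44, UQCRFS1 by 0.35 and COX4I1 by 0.32 (adjusted p from 6.54e-06 to 0.024), while CYC1 (log2 change 0.02 ± 0.12, adjusted p 0.885) and NDUFS1 (log2 change 0.15 ± 0.11, adjusted p 0.265) did not pass. GC content moved with this step in the other direction, with a Spearman correlation of -0.57 over the members and -0.29 over protein-coding genes, and the 10 rises had log2 changes between 1.00 and 1.99 with the trend taken off.

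Set against each other directly, the start and the end of the course differed subunit by subunit. From H1 to CD43+ cells, 29 members were higher and 13 lower, against 33.2% and 41.5% of all genes tested, with a median log2 change of 0.26 for the members and -0.10 for all genes. At least 2-fold, 3 were higher and 4 lower, against 14.6% and 22.5%. NDUFS7 (log2 change 1.23 ± 0.16, adjusted p 1.89e-05), NDUFV1 (log2 change 1.19 ± 0.10, adjusted p 4.84e-07) and UQCR11 (log2 change 1.07 ± 0.18, adjusted p 0.000133) were higher, and CYC1 followed at 0.86. NDUFV1 read 77.6, 66.1 and 62.7 FPKM in H1 and 164, 160.4 and 149 in CD43+ cells. The 4 lower were NDUFA5 (log2 change -2.32 ± 0.15, adjusted p 2.21e-08), NDUFS4 (-1.39), NDUFA12 (-1.27) and SDHD (-1.13). NDUFA5 read 30.5, 25.3 and 26.9 FPKM in H1 and 4.07, 3.95 and 6.31 in CD43+ cells, and NDUFA12, also of the matrix arm, 82.5, 89.1 and 90.6 and 29.7, 33.8 and 45.1. With the GC trend taken off, 32 members were higher and 8 lower (5579 of all genes were then higher and 5166 lower). NDUFA5 was then the only member at least 2-fold lower (-1.11). NDUFB5, NDUFA9 and COX7A2 were those at least 2-fold higher (1.26, 1.19 and 1.16), and NDUFS1 turned from -0.35 to 0.21 (adjusted p 0.00993). NDUFB3 turned too, from -0.58 to 0.27 (adjusted p 0.0364), while UQCRB (-0.84 to 0.12), NDUFB6 (-0.66 to 0.11) and NDUFB4 (-0.43 to 0.03) changed sign and lost their call. With replicates 2 and 3 alone, 35 members were higher and 13 lower (4895 of all genes were then higher and 5590 lower).

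By their calls at the 3 consecutive steps in the main fit the members fell into a few courses. The largest set, 18 members, fell, rose and rose again: COX4I1, COX5A, COX5B, COX6A1, COX7A2, NDUFA2, NDUFA3, NDUFA7, NDUFA8, NDUFB8, NDUFB9, NDUFS3, NDUFV1, NDUFV3, SDHA, UQCR11, UQCRFS1 and UQCRQ. A further 12 fell and rose and then did not pass: COX6B1, COX8A, CYC1, NDUFA9, NDUFA11, NDUFB2, NDUFB7, NDUFB10, NDUFB11, NDUFS6, NDUFS7 and NDUFS8. Another 13 fell at both of the first steps and rose at the last: COX6C, COX7B, COX7C, NDUFA5, NDUFB3, NDUFB5, NDUFS4, NDUFS5, NDUFV2, SDHD, UQCRB, UQCRC2 and UQCRH. NDUFA12 and NDUFB6 fell at both and did not pass at the last, and NDUFA1, NDUFA10, NDUFB1, SDHB and UQCR10 fell, did not pass and rose. The remaining 6 were those without a call at the first step, of which NDUFB4 passed at none of the 3. Several courses changed with the GC trend taken off. At the middle step NDUFA2, NDUFA3, NDUFA7, NDUFS3, UQCRQ and COX6A1 then lost their rise, among others. COX7C and UQCRC2 lost their fall there, and NDUFB5 rose. At the last step CYC1, NDUFA11, NDUFB7, NDUFB10, NDUFB11, NDUFS7, NDUFS8 and COX6B1 then passed as higher.

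By mean level, CD43+ was the highest population for 33 members, H1 for 17, CD31+CD34+ for 5 and APLNR+ for 1, and the lowest was APLNR+ for 34, CD31+CD34+ for 20 and H1 (SDHC) and CD43+ (NDUFB4) for 1 each. The most frequent order, from high to low, was CD43+, CD31+CD34+, H1 and APLNR+, found for 20 members, and H1, APLNR+, CD43+ and CD31+CD34+ followed with 10. These orders are of means, and in most members of both sets some neighbouring populations overlapped. COX4I1 had the first order, and its populations did not overlap. It read 309, 281 and 268 FPKM in the 3 H1 libraries and 207, 223 and 187 in mesoderm. In HEPs it read 387, 442 and 404, and in HPCs 461, 576 and 508. COX7A2, which was the most abundant member, had the same order with 339, 509 and 457 FPKM in the 3 H1 libraries, 229, 311 and 241 in mesoderm, 399, 611 and 559.7 in HEPs and 714, 821 and 733 in HPCs, and replicate 1 was the lowest of each population. UQCRH was highest in H1, with 664, 504 and 494 FPKM in the 3 H1 libraries, 347, 325 and 307 in mesoderm, 200.2, 195 and 194 in HEPs and 441, 435 and 439 in HPCs. SDHC was highest in HEPs, with 10.2, 10.1 and 9.43 FPKM in the 3 H1 libraries, 13.9, 11.7 and 9.99 in mesoderm, 20.2, 19.6 and 17.9 in HEPs and 16.5, 15.6 and 12.4 in HPCs. Its partner SDHD was lowest there (13.4, 11.5 and 13.00 FPKM in CD31+CD34+ and 26.3, 25.6 and 25.1 in CD43+ cells), and the proteins of both genes together form the membrane part of complex II. Several members share sequence with other loci, so their reads may have been split or merged: 73.7% of the 50-base stretches of NDUFA7 transcripts, 63.8% of NDUFB8, 44.0% of COX6A1, 39.6% of NDUFV2, 29.4% of UQCRH and 21.1% of SDHA also occurred in transcripts of other genes. Exons of genes on the other strand covered 55.1% of the exon bases of NDUFS7, 49.0% of NDUFB2, 44.9% of NDUFB11 and 44.5% of NDUFA1, and whether strand was used in counting is not given in the sources used here.

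Promoters of respiratory chain genes are known for sites of NRF1, GABP, YY1 and SP1. RefSeq promoters (GRCh38.p14, 250 bases before to 50 after the start) matched 49 of the 56 members by symbol (all but NDUFB5, NDUFB9, NDUFS5, SDHC, UQCRB, CYC1 and COX6C), and both strands were searched for exact letters. NRF1 (GCATGCGC) was found in 9 of 49 member promoters, 18.4%, against 5.4% of 10376 promoters of tested genes. GABP (CCGGAAG) was found in 15, 30.6% against 18.9%, YY1 (AAGATGGCG) in 7, 14.3% against 3.9%, and SP1 (GGGCGG) in 29, 59.2% against 70.3%. Over all 27305 promoters the shares were 3.3%, 10.7%, 1.8% and 44.6%. The NRF1 letters stood in 5 of the 30 matched members that rose at the middle step and in 2 of the 13 that fell. The GABP letters stood in 10 and 3, the YY1 letters in 4 and 2 and the SP1 letters in 21 and 5. Shown are the 3 promoters that hold the NRF1 letters and those of GABP or YY1, with the NRF1 letters between 150 bases before and 30 after the start. They belong to members that rose (COX5B, NDUFS7) and fell (SDHD) at the middle step, the letters of NRF1, GABP and YY1 are in capitals on either strand, and each is written 5′ to 3′ on the strand of the gene.
COX5B, chr2:97645912-97646091 (+ strand): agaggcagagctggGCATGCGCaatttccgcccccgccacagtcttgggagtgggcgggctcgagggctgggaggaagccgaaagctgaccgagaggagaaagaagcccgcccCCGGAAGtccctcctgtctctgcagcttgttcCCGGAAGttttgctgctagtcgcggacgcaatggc
SDHD, chr11:112086723-112086902 (+ strand): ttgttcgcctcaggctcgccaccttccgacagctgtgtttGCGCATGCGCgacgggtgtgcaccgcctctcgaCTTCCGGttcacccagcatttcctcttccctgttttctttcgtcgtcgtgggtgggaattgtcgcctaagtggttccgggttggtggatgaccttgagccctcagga
NDUFS7, chr19:1383757-1383936 (+ strand): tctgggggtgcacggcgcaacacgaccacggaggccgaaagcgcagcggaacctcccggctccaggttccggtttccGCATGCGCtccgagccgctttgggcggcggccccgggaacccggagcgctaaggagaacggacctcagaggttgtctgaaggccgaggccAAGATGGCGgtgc
COX5B, a subunit of complex IV, read 146, 107 and 108 FPKM in APLNR+ and 264, 235 and 214 in CD31+CD34+ cells. A match of letters is a description and no site.

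Nuclear subunits outside the list were read singly. From H1 to APLNR+ cells NDUFA4, now counted to complex IV, fell (log2 change -0.71 ± 0.10, adjusted p 6.41e-05), as did NDUFC2 (log2 change -0.52 ± 0.11, adjusted p 0.00171) and NDUFC1 (log2 change -0.46 ± 0.18, adjusted p 0.0445), both of the membrane arm of complex I, while NDUFAB1, the mitochondrial acyl carrier protein, did not pass (log2 change -0.23 ± 0.12, adjusted p 0.109). NDUFA4 averaged 93.5 ± 1.09 FPKM in H1 and 56.9 ± 3.43 in APLNR+ cells. At the middle step NDUFC2 rose (0.46) and NDUFA4 (-0.28) and NDUFAB1 (-0.38) fell, and at the last NDUFA4 (0.69) and NDUFAB1 (0.54) rose. Of 8 tissue isoforms, 7 were under the filter of 1 FPKM in 3 libraries. COX7B2 and COX8C were listed at 0 in every library, and COX4I2, COX6A2, COX6B2, COX7A1 and NDUFA4L2 averaged at most 0.318 FPKM in any population. UQCRHL, a near copy of UQCRH, averaged between 1.48 and 4.04 FPKM, and its reads may be shared with UQCRH.

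Subunits encoded in mitochondrial DNA were seldom called at the first step: 1 of 13 rose, MT-CO1 (log2 change 0.74 ± 0.16, adjusted p 0.00203), and 0 fell, also at an unadjusted p under 0.05. Of all genes tested, 22.7% rose and 35.2% fell there. The standard errors were 0.84 for MT-ND3, 0.87 for MT-ATP8 and 0.53 for MT-ND4L. A fall as large as the median of the nuclear members could therefore be missed in these genes. MT-CO1, the catalytic core of complex IV, had 135, 185 and 196 FPKM in the 3 H1 libraries, 261, 292 and 300.5 in mesoderm, 215, 302 and 294 in HEPs and 304, 338 and 379.9 in HPCs. At the middle step 1 of 13 rose, MT-ND6 (log2 change 0.46 ± 0.19, adjusted p 0.0439), and 0 fell (1 and 1 at an unadjusted p under 0.05). Of all genes tested, 35.9% rose and 37.9% fell at that step. At the last step 5 rose and 0 fell (6 and 0 at an unadjusted p under 0.05), against 25.9% and 27.8% of all genes. The 5 were MT-ND1, MT-ND4, MT-ND5, MT-ND6 and MT-CYB. MT-ND5, a proton-pumping subunit of complex I, had log2 change 0.98 ± 0.21, adjusted p 0.00167, and MT-CYB, the cytochrome b of complex III, log2 change 0.81 ± 0.13, adjusted p 0.000255. MT-ND6 lies opposite to other mitochondrial genes on the second strand, so its reads may not be its own. Replicate 1 was the lowest library of all 4 populations for 10 of the 13: MT-ND3 had 7.01, 41.3 and 37.4 FPKM in the 3 H1 libraries, 8.98, 41.95 and 38.4 in mesoderm, 10.8, 59.1 and 56.7 in HEPs and 22.3, 73.7 and 88.4 in HPCs. With replicates 2 and 3 alone, 2 of 13 were higher and 1 lower at the first step (3170 and 4695 of all genes). At the last, 10 were higher and 0 lower (3799 and 3964 of all genes). Their levels, 1.86 FPKM at the lowest, may also hold reads shared with nuclear copies of mitochondrial DNA.

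The ATP synthase, which uses the proton gradient that the chain builds, showed the same directions at the first and last steps. Of 18 genes of its nuclear subunits and inhibitor, 14 fell and 0 rose at the first step (16 and 0 at an unadjusted p under 0.05), 6 rose and 6 fell at the middle step, and 16 rose and 0 fell at the last (17 and 0). The median log2 changes were -0.61, 0.08 and 0.90. The shares at the middle step were near the 35.9% and 37.9% of all genes. ATP5H, the stalk subunit d, averaged 260.3 ± 20.2, 138 ± 20.6, 54.2 ± 8.55 and 165 ± 21.2 FPKM in the 4 populations in order, with log2 changes of -0.92, -1.34 and 1.59. ATP5O, also of the stalk, had -0.87, -1.25 and 1.51, and ATP5F1 -0.53, -1.27 and 1.07 (adjusted p of these 9 changes at most 0.00125). All 3 fell at both of the first steps and rose at the last, as 13 members did. No GC content was found for the 18 genes under the symbols used here. Their changes could therefore not be read with the GC trend taken off.

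Of 47 assembly factors, which build the complexes and are not part of them, 29 fell and 0 rose at the first step (31 and 0 at an unadjusted p under 0.05), 18 rose and 21 fell at the middle and 26 rose and 0 fell at the last (28 and 0), with medians of -0.49, 0.13 and 0.36. Of all genes, 35.9% rose and 37.9% fell at the middle step. From H1 to CD43+ cells, 16 assembly factors were higher and 19 lower, shares near the 33.2% and 41.5% of all genes. COX16, a factor of complex IV, averaged 45.96 ± 0.400, 37.2 ± 2.00, 7.39 ± 1.47 and 14.6 ± 2.45 FPKM in the 4 populations in order. Its fall to HEPs (log2 change -2.20 ± 0.13, adjusted p 3.43e-08) and that of TMEM126B, a factor of complex I (log2 change -1.99 ± 0.11, adjusted p 1.3e-08), were the largest, and NDUFAF7 was lower in CD43+ than in H1 cells (log2 change -1.64 ± 0.12, adjusted p 7.77e-08). GC content of these 3 was 39.8%, 37.2% and 42.7%, and with the GC trend taken off these 3 changes were -1.29, -0.93 and -0.95.

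Genes of cytochrome c and of coenzyme Q synthesis, which serve the mobile carriers, shared the directions of the first and last steps. Of 11 such genes, 9 fell and 0 rose at the first step, 4 rose and 4 fell at the middle, and 9 rose and 0 fell at the last, with the same counts at an unadjusted p under 0.05. The middle counts were near the 35.9% and 37.9% of all genes. The sum of these genes was lowest in HEPs, at 101 to 118 FPKM against 131 to 161 in mesoderm, which rests on CYCS alone. The other genes of this list summed to less in mesoderm than in HEPs, as the members did. CYCS, the somatic cytochrome c, averaged 101 ± 2.52 FPKM in H1, 72.9 ± 10.8 in mesoderm, 11.8 ± 2.13 in HEPs and 21.99 ± 4.79 in HPCs. Its fall to HEPs (log2 change -2.54 ± 0.16, adjusted p 5.19e-08) was larger than that of any member, and it stayed lower in CD43+ than in H1 cells (log2 change -2.17 ± 0.16, adjusted p 1.22e-07), at a GC content of 42.4%. With the GC trend taken off these log2 changes were -1.85 and -1.46. COQ6 and COQ8A, of the synthesis of coenzyme Q, were higher in CD43+ than in H1 cells, by 1.56 and 1.36 (1.47 and 1.02 with the trend taken off).

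Genes that regulate mitochondrial transcription and number were read next. Of 13 tested, 1 rose and 8 fell at the first step, against 22.7% and 35.2% of all genes. At the middle step 6 rose and 5 fell, against 35.9% and 37.9%. At the last 3 rose and 3 fell, near the 25.9% and 27.8% of all genes. PPARGC1A, the coactivator PGC-1 alpha, was under the filter at 0.999 FPKM or less in the mean of each population. TFAM, which packages and transcribes mitochondrial DNA, averaged 45.7 ± 1.11, 26.7 ± 1.17, 6.01 ± 1.00 and 7.38 ± 0.789 FPKM in the 4 populations in order, a log2 change of -2.48 from H1 to CD43+ cells (adjusted p 1.12e-09). GABPA (log2 change -1.79 ± 0.14, adjusted p 1.69e-07) and TFB1M (log2 change -1.32 ± 0.08, adjusted p 1.64e-08) were also lower in CD43+ than in H1 cells. The gene that rose at the first step was NRF1, from 3.64 ± 0.320 to 6.35 ± 0.0384 FPKM (log2 change 0.67 ± 0.10, adjusted p 0.000125). With the GC trend taken off, the changes from H1 to CD43+ cells were -1.57 for TFAM, -0.65 for GABPA and -0.68 for TFB1M.

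**Figure D5:**
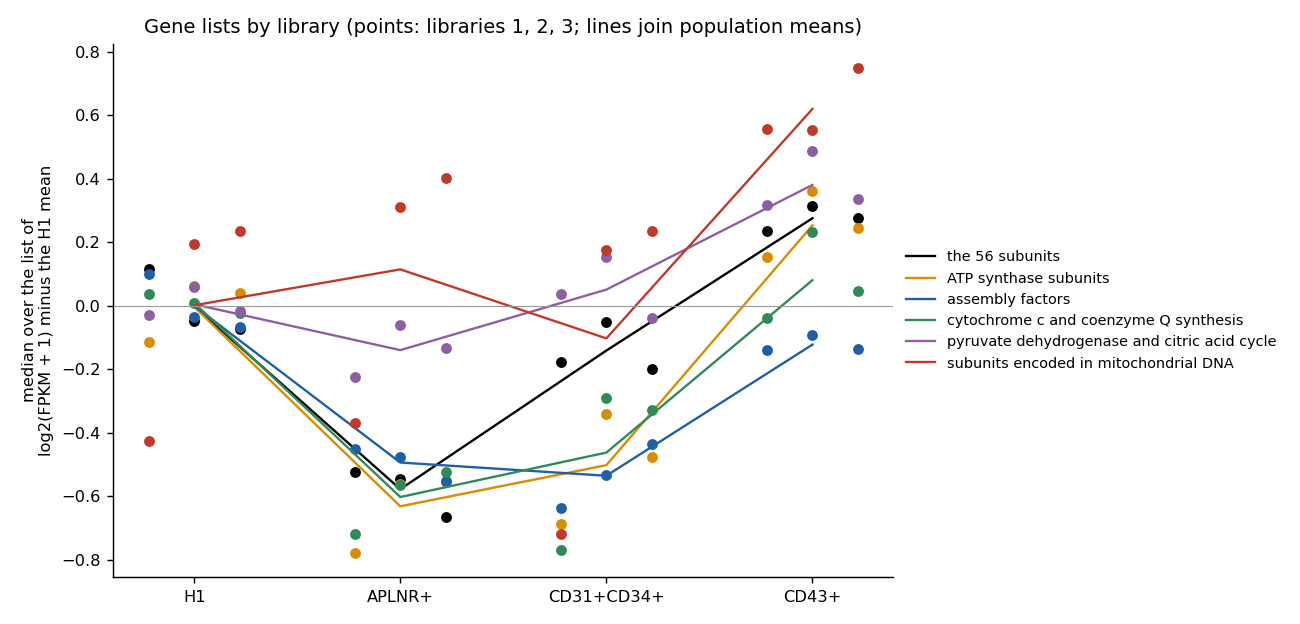
Median over each gene list of log2(FPKM + 1) minus the mean of the H1 libraries, by library; points are replicates 1, 2 and 3 from left to right and lines join the means of the populations. The 56 subunits, ATP synthase, assembly factors and the genes of cytochrome c and coenzyme Q synthesis are all below H1 in APLNR+ cells. The subunits lie above the assembly factors in CD31+CD34+ cells, and replicate 1 is low for the genes of mitochondrial DNA in H1, APLNR+ and CD31+CD34+ cells.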

How the data were processed

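RNA-seq values of 12 libraries were used, grouped and numbered by the sample titles. The values deposited by the authors are FPKM, in 1 table for all libraries, and the submitters' notes name BWA, Bowtie, RSEM and hg19 without roles or versions. The strand setting and any scaling between libraries are not given in the sources used here. Of 58366 lines, 1 held text and was left out, and where several lines shared a symbol only that of highest mean entered. A gene was tested if 3 or more libraries reached 1 FPKM, which 14840 did.

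The main model was fitted in limma (3.58.1, R 4.3.3) on log2(FPKM + 1) over all 4 populations at once, without covariates and with a trended eBayes prior, and Benjamini-Hochberg adjusted p-values were taken over all genes tested. This scale understates the change of low genes. Calls needed an adjusted p below 0.05, and also at least 2-fold where stated. In data simulated for 13528 genes on the H1 to APLNR+ comparison, 26 of 66 genes changed by 0.5 (log2), 57 of 67 by 1 and 67 of 67 by 2 were called, as were 3 unchanged genes. No other gene was changed there and the noise was independent between genes. In the real comparison 22.7% of genes were called higher and 35.2% lower, so the share recovered may differ. No gene set was tested. Relative depth came from the ratio of FPKM values of lines with the lowest values, and 55 of 66 pairs of libraries gave the same ratio within 0.05 (log2). The precision is limited by 3 libraries per population.

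The members and lists were chosen with earlier results of these data known. Named were, per comparison, the called members without overlap between the populations that rose most (4) and fell most (4), the 3 highest and 3 lowest members, 8 core positions, members on several lines, and up to 3 genes of each list by their largest called change of at least 2-fold. Genes of the lists of other, isoform and mitochondrial DNA subunits could be named, with 1 result not reported here. Further members are named to account for each of them or for a small count, after their values were seen. GC content was the median over the basic transcripts of a gene in GENCODE release 29. It was found for 98.3% of genes tested, but not for the 18 genes of the ATP synthase. The alternatives changed the pseudocount (to 0.1), the filter (to none, or to a mean of 5 FPKM), the scaling (3 others), the eBayes trend and the populations fitted, added a replicate block, dropped symbols on several lines, kept replicates 2 and 3 alone, or left out each library in turn. Taking the GC trend off each library (loess, span 0.3) was added after the data were seen. Scripts ran in Python 3.11.15 with pandas 2.3.3, numpy 2.4.6, scipy 1.17.1 and, for figures, matplotlib 3.10.9.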

Additional observations from a re-analysis of the deposited data

How the results depend on the processing

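Of the 4 comparisons, the direction of the median change of the members was the same under each of the 24 alternatives. From H1 to APLNR+ cells the count of members higher, 0, was 1 with upper-quartile, quantile or median-ratio scaling, with the compared populations alone, with replicates 2 and 3 alone or with the GC trend removed, and from 0 to 1 when single libraries were left out. Without CD43+ replicate 1, and without CD43+ replicate 3, the count was 1. The replicate block gave 2 there, and 53 lower in place of 50 (3850 of all genes were then higher and 5987 lower). The count of members lower, 50, was 44 with upper-quartile or median-ratio scaling and 37 with quantile normalization. It was 44 to 51 when single libraries were left out. The count at least 2-fold lower, 5, was 2 with quantile normalization, and the median of -0.56 was -0.46 with upper-quartile or median-ratio scaling, -0.36 with quantile normalization and -0.49 with the GC trend removed. At the middle step, 9 members at least 2-fold higher became 5 with quantile normalization and 2 with the GC trend removed, 7 at least 2-fold lower became 1 with the GC trend removed, and the median of 0.46 became 0.25, 0.53 with replicates 2 and 3 alone and 0.22. At the last step the 1 member lower became 0 with no filter, with each of the 3 scalings and with the GC trend removed, and was 0 or 1 when single libraries were left out: it was 0 without CD31+CD34+ replicate 1 or 2 or CD43+ replicate 3. From H1 to CD43+ cells, 13 members lower became 8 with the GC trend removed, 3 at least 2-fold higher became 5 with median-ratio scaling, 4 at least 2-fold lower became 1 with the GC trend removed, and the median of 0.26 became 0.37 with upper-quartile scaling, 0.42 with median-ratio scaling and 0.36 with replicates 2 and 3 alone. The cause of these moves was not tested. The median of all genes from H1 to CD43+ cells was -0.10, 0.02 with median-ratio scaling and 0.03 with the GC trend removed.

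Over the genes that the naming rule gave for a comparison, 1294 values were computed. Of these, 1228 kept their direction and side of the threshold, 50 no longer passed, 10 newly passed and 6 changed sign. The sign changes were NDUFS1 with the GC trend removed (0.27 at the middle step and 0.21 from H1 to CD43+ cells), SDHB at the middle step (0.00 with replicates 2 and 3 alone, and -0.10 to 0.01 as single libraries were left out, the last without CD31+CD34+ replicate 1) and CYC1 at the last step (-0.04 to 0.11 as single libraries were left out, the first without CD31+CD34+ replicate 3 or CD43+ replicate 2). SDHB and CYC1 had no call at these steps. Of the other members with a call, 4 changed sign at the middle step (NDUFA7 -0.03, NDUFB5 0.33, NDUFB6 0.23, COX7C 0.09) and 4 from H1 to CD43+ cells (NDUFB3 0.27, NDUFB4 0.03, NDUFB6 0.11, UQCRB 0.12), in each case with the GC trend removed.

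Same-numbered libraries correlated between -0.02 and 0.43 in their deviations from the population means over all genes tested, with 12 of 18 pairs over 0.1, and 7 of 12 libraries correlated best with their own number. Over the 56 members alone all 18 pairs were over 0.1, from 0.39 to 0.84, and 11 of 12 libraries correlated best with their own number, a hint from the data that the numbers mark something shared. The labels give no shared source, and by the correlations over all genes the numbers were not taken as pairs. The main p-values therefore leave out what the numbers share over the members. Beside the value above the replicate block moved no count of members called by over 1.5 times. With it 34 rose and 18 fell at the middle step, in place of 33 and 17 (5691 of all genes were then higher and 5945 lower). At the last step 41 rose, in place of 37 (4608 of all genes were then higher and 4763 lower). From H1 to CD43+ cells 32 were higher and 16 lower, in place of 29 and 13 (5333 of all genes were then higher and 6505 lower). Within-population SDs over 3 libraries set the smallest change that could be called, and small changes were recovered least often in simulated data.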

Other observations

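Enzymes that feed the chain with electrons had calls in both directions. Of 17 genes of the pyruvate dehydrogenase complex and the citric acid cycle, 4 rose and 5 fell from H1 to APLNR+ cells, against 22.7% and 35.2% of all genes tested. At the middle step 9 rose and 8 fell (35.9% and 37.9% of all genes), and at the last 7 rose and 1 fell (25.9% and 27.8%). From H1 to CD43+ cells, 9 were higher and 6 lower, against 33.2% and 41.5%, with a median log2 change of 0.38. IDH2, the mitochondrial isocitrate dehydrogenase that makes NADPH, averaged 30.5 ± 0.996 FPKM in H1, 36.1 ± 2.73 in mesoderm, 142 ± 7.11 in HEPs and 117 ± 9.09 in HPCs. Its rise to HEPs had log2 change 1.95 ± 0.09, adjusted p 2.49e-09 (limma). SUCLA2, a subunit of the succinyl-CoA ligase that makes ATP, averaged 29.7 ± 2.02, 33.5 ± 1.97, 4.99 ± 0.905 and 5.14 ± 1.16 FPKM in the same order, with log2 change -2.53 ± 0.14, adjusted p 1.65e-08 at the middle step. DLD, the shared dihydrolipoamide dehydrogenase, had log2 change -2.33 ± 0.19, adjusted p 4.05e-07 there. GC content was 56.9% for IDH2, 39.5% for SUCLA2 and 40.1% for DLD, and with the GC trend removed the middle step changes were 1.43, -1.60 and -1.43.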
